A study of Equus caballus with 21 samples.

Results

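SERPINA14 (gene ID 100462689), the uterine serpin, and PRSS23 (gene ID 100060937), a secreted serine protease, were followed through every compartment and state of horse endometrium at day 12. They are 2 of the 24942 gene IDs in the deposited count table and were matched to it by symbol and Entrez ID. Both were selected on measured values: an earlier reading of these data listed them as higher in pregnant than in cyclic luminal epithelium. Their luminal difference between states, and every comparison of the pair with luminal epithelium, is therefore given as a description with no test. Tests of the pair are given only within glands, within stroma and between stroma and glands. The last of these shares its fit with luminal sums.

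Serpins are proteins that mostly act as suicide inhibitors: the protease cleaves an exposed loop and is then trapped in a dead complex. SERPINA14 belongs to a small branch known as uterine milk protein in sheep and as uteroferrin-associated protein in pigs, where uterine glands secrete it into the lumen under progesterone, and it is not known as an inhibitor of the common serine proteases. PRSS23 has a trypsin-type catalytic fold, is described in ovarian follicles of mice and in endothelial cells of human origin, and is not an established target of SERPINA14. Both would be secreted products in the fluid that surrounds the equine conceptus, which still moves freely through the uterus at this stage.

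RNA sequencing was done on 21 libraries, each from 1 compartment cut by laser from a uterine biopsy of a warmblood mare. The groups were pregnant stroma (2 libraries), cyclic stroma (2), pregnant glandular epithelium (4), cyclic glandular epithelium (4), pregnant luminal epithelium (4) and cyclic luminal epithelium (5). Ovulation was induced with human choriogonadotropin in every mare of either state, insemination was given for the pregnancy cycle, and both states were sampled on day 12. Both epithelia in both states came from mares B, C, M and U, mare J gave 1 cyclic luminal library, and stroma came from mares M and U in pregnancy and from mares B and M in the cycle. The labels give no age for the mares. Luminal epithelium lines the uterine cavity, glandular epithelium forms the glands beneath it, and stroma is the connective tissue around them.

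Total counts ran from 136259 to 1467510 per library, with the pregnant luminal library of mare M the shallowest. Levels are CPM (counts scaled to 1e+06 reads) of a library size scaled by trimmed means (TMM) over the 21 libraries, so a level below about 10 CPM rests on a few reads. Summed markers of glands (4 genes) were highest in glandular libraries (15871 to 53356 CPM, against 356 to 4400 CPM in luminal libraries), although FOXA2, which defines uterine glands, had no count anywhere. Summed stromal fibroblast markers (8 genes) were 4331 to 10779 CPM in stroma, 335 to 1522 CPM in glandular and 628 to 5070 CPM in luminal libraries. The luminal maximum was again the pregnant library of mare M. That library and the cyclic glandular one of mare M had the lowest 18S ribosomal RNA, at 0.452% and 0.293% of counts. The pregnant stromal library of mare U was also low, at 0.819%, and all others had 7.29% to 66.2%. The cyclic glandular library of mare M also had 15100 CPM of summed epithelial markers (6 genes), against 1548 to 1726 CPM in the other cyclic glands. EPCAM made up most of this sum, with a mean of 4723 CPM in cyclic glands, and KRT18 was next at 153 CPM. EPCAM made up most of this sum, with a mean of 4723 CPM in cyclic glands, and KRT18 was next at 153 CPM. Replicates within a group came from different mares. Fewer cells of a type and less RNA per cell cannot be told apart in captured tissue.

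SERPINA14 RNA was concentrated in the luminal epithelium, where it was present in all 9 libraries and higher in pregnancy than in the cycle in each of the 4 mares sampled in both states. In pregnant luminal epithelium the level was 886 CPM in mare B, 358 CPM in mare C, 1278 CPM in mare M and 890 CPM in mare U. In cyclic luminal epithelium it was 16.6 CPM in mare B, 2.69 CPM in mare C, 46.6 CPM in mare J, 447 CPM in mare M and 390 CPM in mare U. The state groups overlapped, because the pregnant library of mare C lay under the cyclic libraries of mares M and U.

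In fold terms the cyclic luminal libraries spread wider than the pregnant ones, and the size of the change within a mare differed with them. Group means were 853 ± 378 CPM in pregnant (SD, n = 4) and 181 ± 219 CPM in cyclic luminal epithelium (SD, n = 5). The pregnant library of mare B stood 53.4-fold above the cyclic one. In mare C the ratio was 133 (95% counting interval 44.8 to 654, on 152 against 3 counts). The change was 2.86-fold in mare M and 2.28-fold in mare U, the animals whose cyclic level was already high. Across the 9 luminal libraries edgeR gave a log2 fold change of 2.31 ± 0.73 (SE), as a description, and 2.02 to 2.98 with 1 library left out. In that comparison 0.437% of the 4344 genes tested were called in either direction, from which nothing is read for SERPINA14 or PRSS23.

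In the glands SERPINA14 was low, and its measured level was higher in each pregnant library than in any cyclic one, on few counts. Pregnant glandular epithelium had 22.8 CPM in mare B, 17.0 CPM in mare C, 13.2 CPM in mare M and 12.1 CPM in mare U, on 5 to 30 counts. Cyclic glandular epithelium had no count in mares B and C (3 counts would have been 2.47 and 4.69 CPM), 6.82 CPM in mare M and 4.18 CPM in mare U. The values in mares M and U rest on 1 and 2 counts, with 95% counting intervals of 0.173 to 38.0 CPM and 0.507 to 15.1 CPM. The measured values did not overlap, and the pregnant one was higher in 4 of 4 mares, but the interval of mare M spans every pregnant value. Over both sets of libraries 52 counts stood against 3, a ratio of 13.6 (95% counting interval 4.42 to 68.3, which covers counting error only).

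The mean of log2(CPM + 1) was 2.73 higher in pregnant than in cyclic glands, and a two-sided exact permutation test of this single value gave p = 0.0286 (n = 4 each), the smallest p that 70 arrangements allow. That test takes the libraries as independent. Within mares, exact sign flips of the 4 differences gave p = 0.125, the smallest that 16 flips allow, so a paired test could not reach 0.05. SERPINA14 did not reach the count filter of the test across all genes in the glands. Without the filter, edgeR's quasi-likelihood test gave a log2 fold change of 2.83 ± 2.40 and a Benjamini-Hochberg adjusted p of 0.684, so the difference was not called among all genes. Of the 4816 genes tested with the filter, 0.0623% (3 genes) were called between pregnant and cyclic glands. Set against the luminal library of the same biopsy, SERPINA14 in pregnant glands was 2.57% (mare B), 4.74% (mare C), 1.03% (mare M) and 1.36% (mare U) of the luminal level. A set of 110 other genes was picked after their values were seen, for an adjusted p under 0.05 and a log2 fall over 4 from luminal epithelium to glands. They summed to 4.67%, 3.56%, 3.62% and 2.14% of their luminal level in the same pregnant biopsies. In the cyclic ones the shares were 3.25% (mare B), 22.6% (mare C), 15.9% (mare M) and 4.42% (mare U). The cutoff was set on these same libraries and itself keeps the shares low, so they do not measure carried-over RNA. SERPINA14 in cyclic glands was 1.53% of the luminal level in mare M and 1.07% in mare U, on 1 and 2 counts, and had no count in mares B and C. The part of carried-over luminal RNA in the glandular difference was not tested.

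In stroma SERPINA14 was at the edge of detection in both states. Pregnant stroma had 1.88 CPM in mare M and 11.3 CPM in mare U, and cyclic stroma had 10.5 CPM in mare B and 5.99 CPM in mare M. These rest on 1 to 3 counts each and overlap. The ratio of the 4 pregnant to the 4 cyclic counts, per scaled library, was 0.569 (95% counting interval 0.106 to 3.06), and a difference was not detectable at this depth.

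**Figure D1:**
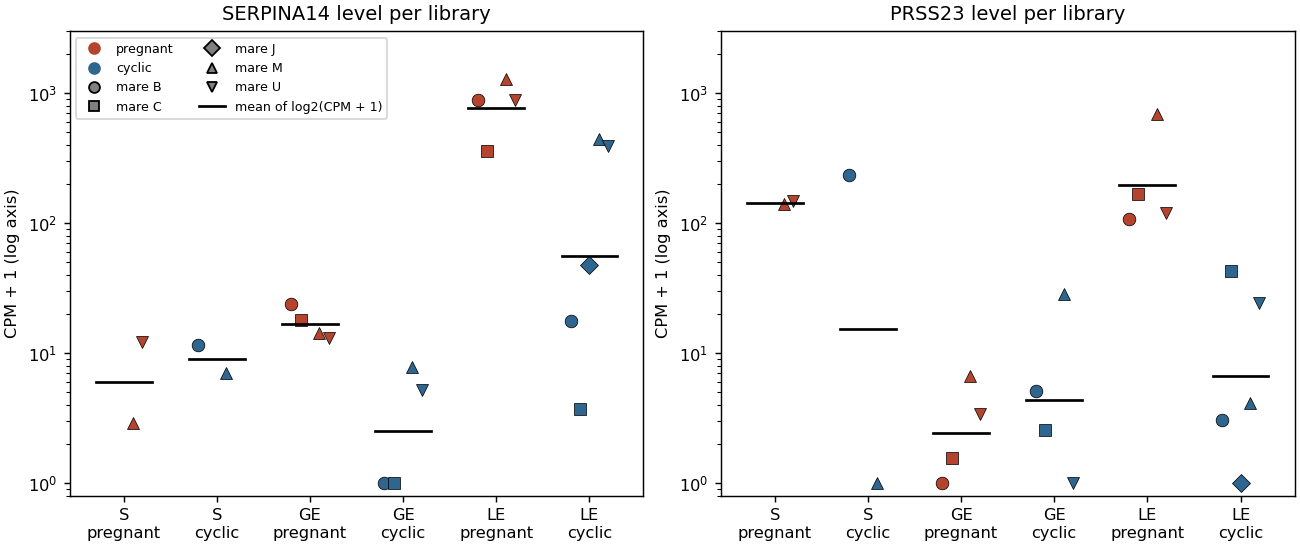
Level of SERPINA14 (left) and PRSS23 (right) in each of the 21 libraries, as CPM + 1 on a log axis, for stroma (S), glandular epithelium (GE) and luminal epithelium (LE) in pregnant and cyclic mares. Each point is 1 library, the symbol gives the mare, and the bar is the mean of log2(CPM + 1). SERPINA14 lies between 358 and 1278 CPM in pregnant luminal libraries and spreads between 2.69 and 447 CPM in cyclic ones, whereas PRSS23 is high in pregnant luminal and in 3 of 4 stromal libraries.

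PRSS23 RNA was found in pregnant luminal epithelium and in stroma, and was near 0 in cyclic luminal epithelium of some mares and in the glands. Pregnant luminal epithelium had 108 CPM in mare B, 167 CPM in mare C, 685 CPM in mare M and 119 CPM in mare U. Cyclic luminal epithelium had 2.08 CPM in mare B, 42.1 CPM in mare C, no count in mare J (3 counts would have been 5.59 CPM), 3.13 CPM in mare M and 23.1 CPM in mare U. The state groups did not overlap, and the pregnant library was the higher one in 4 of 4 mares.

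The lowest pregnant level was over the highest cyclic level even though 1 library, the pregnant one of mare M, was far above the rest. Means were 270 ± 278 CPM in pregnant (SD, n = 4) and 14.1 ± 18.2 CPM in cyclic luminal epithelium (SD, n = 5). Within mares the change was 3.98-fold in mare C and 5.13-fold in mare U. In mares B and M the cyclic library held 1 count, and the ratios were 51.8 (95% counting interval 8.81 to 2095) and 219 (38.7 to 8723). The log2 fold change by edgeR was 4.23 ± 1.24 (SE), again with no test. Leaving out mare M's pregnant library gave 3.17, and leaving out any other luminal library gave 3.94 to 5.20. The mares with the larger change were thus B and M for PRSS23 but B and C for SERPINA14, and over the 9 luminal libraries log2(CPM + 1) of the pair gave Pearson r = 0.513 and Spearman rho = 0.6, as a description of libraries that share mares and a preparation kit.

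Glandular epithelium had very little PRSS23 in either state. Pregnant glands had no count in mare B (3 counts would have been 6.84 CPM), 0.567 CPM in mare C, 5.64 CPM in mare M and 2.41 CPM in mare U. Cyclic glands had 4.11 CPM in mare B, 1.56 CPM in mare C, 27.3 CPM in mare M and no count in mare U (3 counts would have been 6.28 CPM). The groups overlapped, on 5 against 10 counts in all. The mean of log2(CPM + 1) was 0.846 lower in pregnant glands (two-sided exact permutation test, p = 0.571, n = 4 each), and 0.05 higher without the cyclic library of mare M. PRSS23 did not reach the count filter here, and the ratio of summed counts, 0.394, had a 95% counting interval of 0.106 to 1.26.

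Stromal PRSS23 was high in 3 of 4 libraries. Pregnant stroma had 139 CPM in mare M and 146 CPM in mare U, and cyclic stroma had 234 CPM in mare B and no count in mare M, where 3 counts would have been 18.0 CPM. The states overlapped. The cyclic stromal library of mare M was also among the shallowest, with 138441 counts, and it had the highest stromal marker sum, 10779 CPM. edgeR gave a log2 fold change of 0.20 ± 2.67 between pregnant and cyclic stroma (quasi-likelihood test, adjusted p = 0.9985). Of the 2212 genes tested in stroma 0% were called by edgeR, with 88 at an unadjusted p under 0.05 and 4 called by DESeq2.

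Ranked by the mean of log2(CPM + 1), SERPINA14 ran in the order pregnant luminal, cyclic luminal, pregnant glandular, cyclic stromal, pregnant stromal and cyclic glandular. Among neighbours in that order, the measured values of pregnant glands and cyclic stroma alone did not overlap (lowest 12.1 CPM in glands, highest 10.5 CPM in stroma). These 2 values rest on 5 and 3 counts. Their 95% counting intervals, 3.92 to 28.2 CPM and 2.16 to 30.6 CPM, overlap, and cyclic stroma had 2 libraries. For PRSS23 the order was pregnant luminal, pregnant stromal, cyclic stromal, cyclic luminal, cyclic glandular and pregnant glandular, and each neighbouring pair overlapped.

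Set against the luminal epithelium of the same mares, the glands had less of both transcripts. Counts were summed per mare and compartment over both states for mares B, C, M and U, and glandular and luminal sums were compared by edgeR with the mare as a block. SERPINA14 was 6.37 CPM in mare B, 12.5 CPM in mare C, 11.5 CPM in mare M and 8.35 CPM in mare U in glandular sums, against 434, 98.4, 809 and 595 CPM in the luminal sums of the same mares. Every glandular sum lay below every luminal one. The log2 fold change was -5.35 ± 0.68 (SE), lower in 4 of 4 mares. In this comparison 6.94% of the 7174 genes tested were called, from which nothing is read for the pair.

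PRSS23 was 3.19 CPM in mare B, 0.835 CPM in mare C, 10.1 CPM in mare M and 1.19 CPM in mare U in glandular sums, against 52.7, 74.9, 277 and 61.5 CPM in luminal sums. These did not overlap either. The log2 fold change was -5.10 ± 1.29 (SE), lower in 4 of 4 mares. Pregnant libraries supplied 292 of the 355 luminal PRSS23 counts (82.3%) and 1091 of the 1481 luminal SERPINA14 counts (73.7%), so the compartment difference rests largely on the libraries by which both genes were picked, and no p is given for it.

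Taken state by state, SERPINA14 was lower in glands in the pregnant biopsies and in the cyclic ones of mares B, M and U. The cyclic biopsy of mare C, with 3 luminal counts against 0, was not resolved. That of mare B rests on 8 luminal counts against 0, and cyclic glands held 3 SERPINA14 counts in all. For PRSS23 the compartment difference was not seen in every cyclic biopsy either. In a fit of the 16 epithelial libraries with the biopsy as a block, the glandular minus luminal log2 fold change of SERPINA14 was -5.58 ± 1.14 in pregnant and -6.18 ± 1.36 in cyclic biopsies, as a description. For PRSS23 it was -7.00 ± 1.89 in pregnant and -1.52 ± 2.10 in cyclic biopsies. The median of all 6884 genes in this fit was 0.97 in pregnant and -0.36 in cyclic biopsies. In the cyclic biopsies of mares B and M PRSS23 was higher in glands than in luminal epithelium, at 4.11 against 2.08 CPM and at 27.3 against 3.13 CPM, on at most 5 counts a library. In cyclic biopsies alone neither gene reached the count filter.

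**Figure D2:**
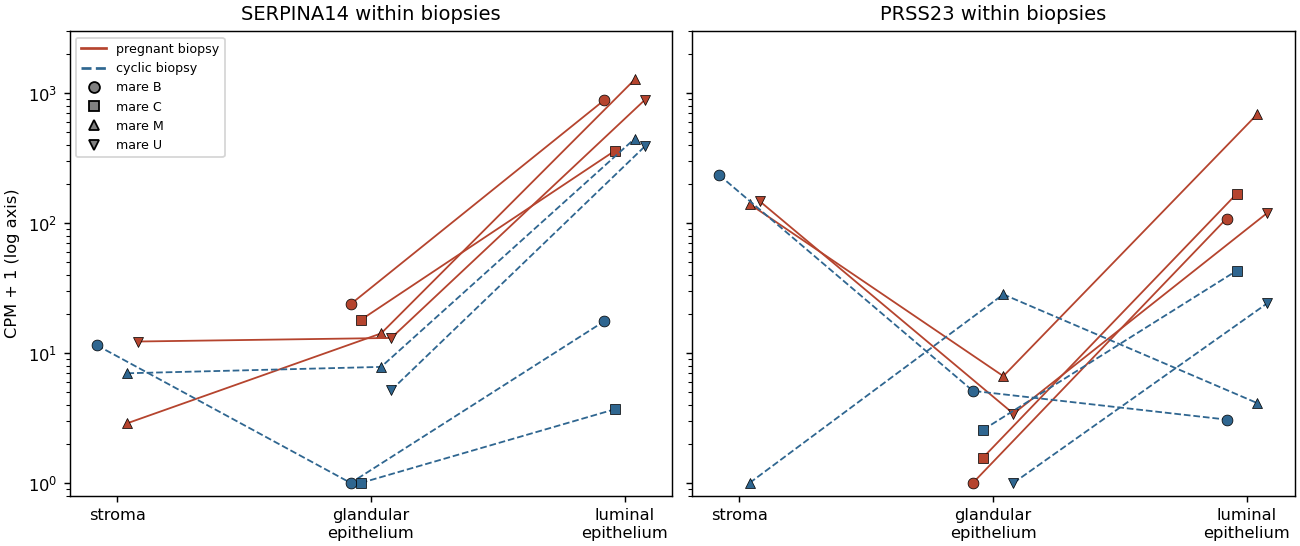
SERPINA14 (left) and PRSS23 (right) in the compartments of single biopsies of mares B, C, M and U, as CPM + 1 on a log axis, from stroma through glandular to luminal epithelium. Lines join libraries of 1 biopsy, solid for pregnant and dashed for cyclic, and symbols give the mare. SERPINA14 is higher in luminal epithelium than in the glands in 7 of 8 biopsies, while the cyclic biopsy of mare C has 3 luminal counts against 0 and is not resolved. PRSS23 is higher in luminal epithelium in 6 of 8, with mares B and M in the cycle as exceptions.

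Stroma differed from glands for PRSS23 in size but not past the threshold. Sums over the biopsies with stroma gave 266 CPM in mare B, 121 CPM in mare M and 156 CPM in mare U for stroma, against 4.15, 10.3 and 2.47 CPM for glands of the same biopsies. The groups did not overlap, and stroma was higher in 3 of 3 mares. The glandular sums rest on 5, 7 and 1 counts. The log2 fold change was 5.30 ± 1.96 (SE, edgeR quasi-likelihood test with the mare as a block, adjusted p = 0.209), where 1.28% of 5769 genes were called. That fit also held the luminal sums of these biopsies, which enter its dispersion, mare effects and SE. Its p is therefore not free of the luminal libraries that chose the genes. DESeq2 called PRSS23 in the same comparison (5.81, adjusted p = 0.00149), where it called 494 of 5769 genes against 74 by edgeR. With limma-voom the log2 fold change was 4.25 ± 4.30 (SE) and PRSS23 was not called. The within-biopsy values ran the other way in the cyclic biopsy of mare M, with no count in stroma against 27.3 CPM in glands.

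Against luminal epithelium, stromal PRSS23 depended on the biopsy. The stromal sums above stood against luminal sums of 2.13 CPM in mare B, 257 CPM in mare M and 119 CPM in mare U. Stroma was higher in mares B and U and lower in mare M. The log2 fold change was 1.10 ± 1.84 (SE), with no test, in a comparison where 1.11% of 5769 genes were called. SERPINA14 did not reach the filter in this fit. Its log2(CPM + 1) was instead averaged over libraries within each mare and then over mares. This mean was 4.73 lower in stroma than in luminal epithelium and 0.73 higher in stroma than in glands, with no test. With 1 mare left out these 2 differences ran from -6.79 to -3.40 and from -0.66 (without mare B) to 1.71, so the direction against glands turned.

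Because stroma held PRSS23, the stromal markers of the luminal libraries are set beside it. In the pregnant biopsy of mare U the luminal library had 13.4% of the stromal marker sum of its stromal library and 81.0% of its PRSS23 level. In the pregnant biopsy of mare M the shares were 117% and 492%. In the cyclic biopsy of mare B the luminal library had 14.1% of the stromal marker sum and 0.888% of the PRSS23 level, on 1 count.

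Stromal marker sums in pregnant luminal libraries were 2571 CPM (mare B), 1530 CPM (mare C), 5070 CPM (mare M) and 968 CPM (mare U). Cyclic ones had 628 to 1724 CPM, and these ranges overlap. The members of the sum did not move together. COL1A1 averaged 1271 CPM in pregnant and 313 CPM in cyclic luminal epithelium, and COL1A2 617 and 322 CPM. DCN (36.4 against 69.9 CPM) and PDGFRA (0 against 19.3 CPM) were lower in pregnancy, and the remaining markers had higher means. The cyclic library of mare J, with 1724 CPM of stromal markers, had no PRSS23 count. The pregnant one of mare U, with 968 CPM, had 119 CPM of PRSS23. Summed endothelial markers (5 genes) were 20.6 to 33.3 CPM in pregnant and 0 to 94.0 CPM in cyclic luminal libraries, and 82.6 to 1096 CPM in stroma. The part of stromal RNA in the luminal PRSS23 level was not tested.

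**Figure D3:**
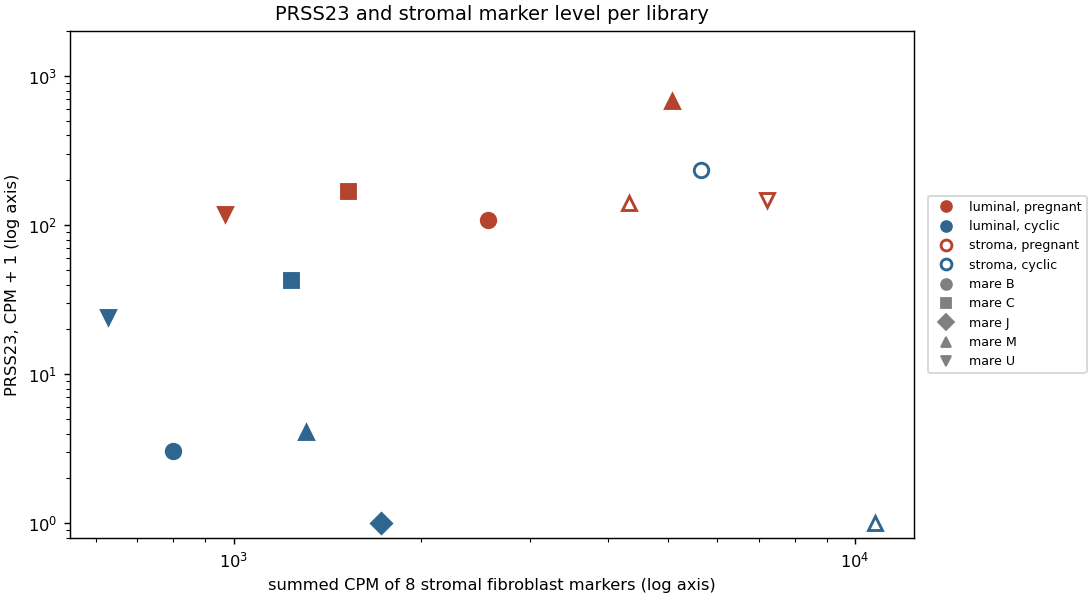
PRSS23 level (CPM + 1, log axis) against the summed CPM of 8 stromal fibroblast markers (log axis) in the 9 luminal libraries (filled) and 4 stromal libraries (open), coloured by state, with symbols for the mare. Pregnant luminal libraries lie above all cyclic luminal ones in PRSS23, and the cyclic stromal library of mare M combines the highest marker sum with no PRSS23 count.

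Among the other serpins 2 were lower in glands than in luminal epithelium, and few could be tested between pregnant and cyclic libraries. Of 35 listed serpins, 29 were matched and 15 had a count in any library. Glands against luminal epithelium gave 4 tested serpins, of which 0 were higher and 2 lower, beside 6.94% called of all genes, and a median log2 fold change of -2.49 beside 0.25 for all genes. The lower ones were SERPINB9, the intracellular inhibitor of granzyme B (-4.04 ± 0.94, adjusted p = 0.000644), and SERPING1, the C1 inhibitor of complement (-4.94 ± 1.07, adjusted p = 0.000199).

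SERPINB9 averaged 34.0 ± 42.2 CPM in pregnant (SD, n = 4) and 223 ± 191 CPM in cyclic luminal epithelium (SD, n = 5), a difference that was not called (log2 fold change -2.71 ± 1.20, adjusted p = 0.498). SERPINB1 (-0.33 ± 1.20) and SERPINB6 (-0.94 ± 1.13), both intracellular serpins of the ovalbumin type, were not called between glands and luminal epithelium (adjusted p 0.97 and 0.846). No listed serpin was called between pregnant and cyclic libraries, out of 4 tested in luminal epithelium, 2 in glands and 2 in stroma. None was called between stroma and an epithelium, out of 5. Over all genes 0.437%, 0.0623% and 0% were called between states in luminal epithelium, glands and stroma. Between stroma and glands the share was 1.28%, and between stroma and luminal epithelium 1.11%. At these shares a lack of calls among so few serpins is not informative.

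Trypsin-type serine proteases other than PRSS23 were called in both directions between glands and luminal epithelium. Of 67 listed, 57 were matched and 27 had a count. Between glands and luminal epithelium 11 were tested, with 1 higher and 2 lower (6.94% of all genes were called) and a median log2 fold change of -1.01 (0.25 for all genes). Complement factor I (CFI), which inactivates C3b and C4b, was higher in glands (1.77 ± 0.50, adjusted p = 0.00976), while the complement protease C1S (-1.75 ± 0.60, adjusted p = 0.0482) and granzyme A (GZMA, -7.31 ± 2.17, adjusted p = 0.0151) were lower.

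GZMA is a product of cytotoxic lymphocytes. Its luminal mean was 103 ± 115 CPM in pregnant (SD, n = 4) and 8.43 ± 11.5 CPM in cyclic libraries (SD, n = 5), and summed immune markers (7 genes) were 1876 to 8425 CPM in pregnant luminal, 1521 to 5192 CPM in cyclic luminal and 157 to 685 CPM in glandular libraries. Within that sum CD74 averaged 5080 CPM in pregnant and 2653 CPM in cyclic luminal epithelium. In pregnant luminal epithelium PTPRC (19.3 against 117 CPM), CSF1R (18.9 against 48.4 CPM) and CD68 (4.18 against 22.0 CPM) were lower. CD3E was higher there (5.15 against 0.689 CPM), on 4 against 3 counts. The part of immune cells in the GZMA value was not tested. Between stroma and glands 9 proteases were tested and 3 were higher in stroma, beside 1.28% called of all genes. They were tissue plasminogen activator PLAT (8.27 ± 2.32, adjusted p = 0.0327), C1R (4.45 ± 1.24, adjusted p = 0.0313) and C1S (3.98 ± 1.02, adjusted p = 0.0140). HTRA1, a secreted protease of the matrix, was called in no comparison and was highest in pregnant stroma at 383 ± 80.3 CPM (SD, n = 2). None of the listed proteases was called between states (5 tested in luminal epithelium, 4 in glands, 6 in stroma) or between stroma and luminal epithelium (9 tested). Over all genes 0.437%, 0.0623%, 0% and 1.11% were called in these comparisons, so nothing is read from the lack of calls.

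The listed secreted uterine proteins, from the class to which SERPINA14 belongs, divided between the epithelia. Like the other lists, this one was written with earlier results of these data known. Its share of calls, between compartments or states, is therefore not read as a result about the class. Of 24 listed, 23 were matched and 21 had a count. Among 16 tested between glands and luminal epithelium, 3 were higher and 6 lower in glands (6.94% of all genes were called), with a median log2 fold change of -2.49 (0.25 for all genes). The higher ones were the gland lipocalin P19 (3.74 ± 0.33, adjusted p = 2.74e-26), uteroglobin SCGB1A1 (4.16 ± 0.54, adjusted p = 2.96e-12) and osteopontin SPP1 (6.30 ± 0.49, adjusted p = 4.35e-34).

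The lower ones were the hormone STC1 (-4.24 ± 0.39), the mucin MUC1 (-5.06 ± 1.25), the whey acidic protein WFDC2 (-5.72 ± 1.28), LGALS3BP (-6.19 ± 1.64), the growth factor carrier IGFBP3 (-4.26 ± 1.05) and the chaperone clusterin CLU (-3.33 ± 0.86), with adjusted p between 7.48e-25 and 0.00424. Between stroma and glands 2 of 12 were higher in stroma, IGFBP5 and CLU, and 2 lower, P19 and SPP1 (1.28% of all genes were called). Between stroma and luminal epithelium 1 of 12 was higher in stroma, IGFBP5, and 1 lower, STC1 (1.11% of all genes were called). Between states FGF9, a growth factor, was called in luminal epithelium (3.90 ± 0.95, edgeR adjusted p = 0.0214), 1 of 15 tested. In glands 0 of 7 were called, and in stroma 0 of 7. Over all genes 0.437%, 0.0623% and 0% were called between states in luminal epithelium, glands and stroma.

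Receptors for the steroids that govern uterine serpin secretion in other species gave 1 call between the epithelia. Of 8 listed genes 7 had a count, and 5 were tested between glands and luminal epithelium, where 6.94% of all genes were called. The estrogen receptor ESR1 was higher in glands (2.19 ± 0.68, adjusted p = 0.0224). The progesterone receptor PGR was not called there (2.90 ± 1.49, adjusted p = 0.337), with levels of 58.7 ± 58.0 CPM in pregnant glands, 51.3 ± 59.1 CPM in cyclic glands, 2.47 ± 2.85 CPM in pregnant and 22.9 ± 41.5 CPM in cyclic luminal epithelium (SD, n = 4, 4, 4 and 5). The membrane progesterone-binding proteins PGRMC1 (-0.25 ± 0.44) and PGRMC2 (-0.69 ± 1.12) were not called either. In the other comparisons no listed receptor was called out of 3 to 5 tested. The share called over all genes was 0% to 1.28% there, so nothing is read from the lack of calls.

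**Figure D4:**
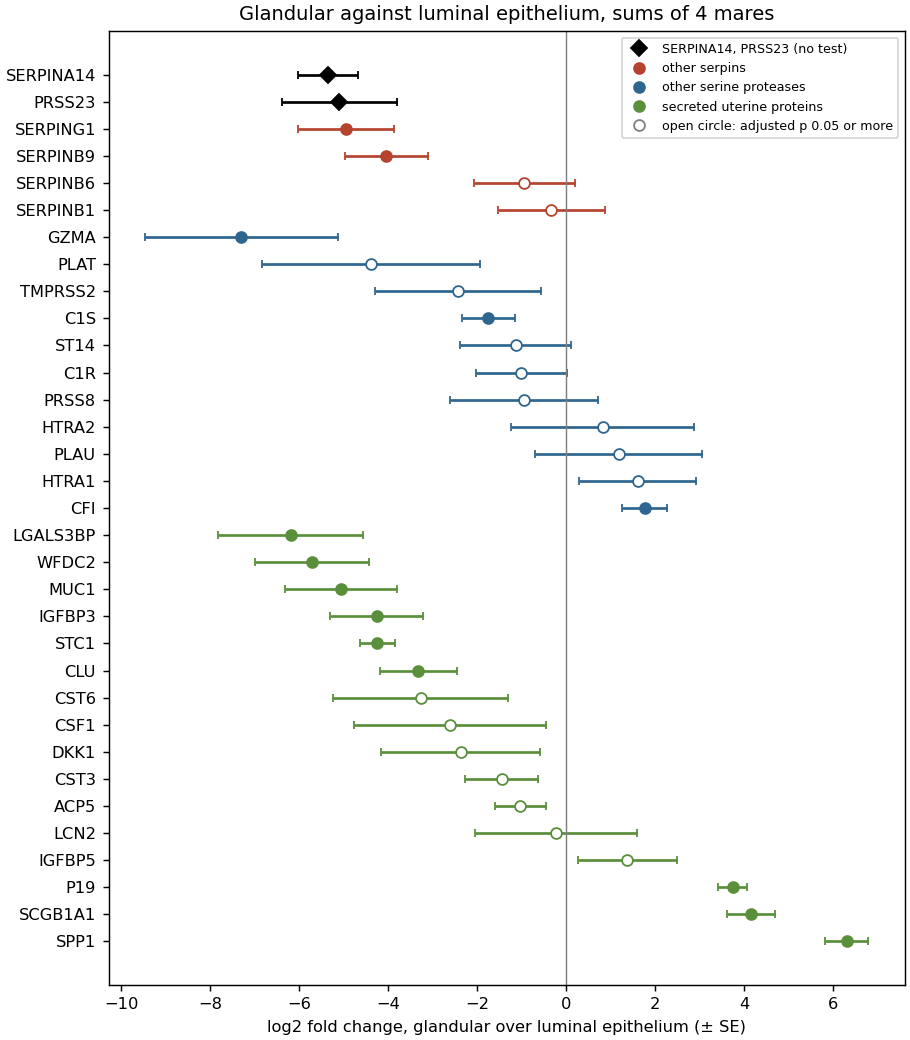
Log2 fold change of glandular over luminal epithelium with its SE, from counts summed per mare (4 mares), for SERPINA14, PRSS23 and the tested members of 3 gene lists. Filled circles have an adjusted p under 0.05. SERPINA14 and PRSS23 (diamonds, no test) lie at -5.35 and -5.10, beside SERPING1 and SERPINB9 among the serpins, while P19, SCGB1A1 and SPP1 stand on the glandular side.

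Genes whose levels followed SERPINA14 were looked for across the libraries. Over 8905 named genes and 21 libraries, the highest Pearson r of log2(CPM + 1) with SERPINA14 belonged to LIPG, an endothelial-type lipase (r = 0.836), GM2A, an activator of glycolipid breakdown (0.824), MME, the membrane peptidase neprilysin (0.802), GCNT1, an enzyme that branches O-glycans (0.799) and PHGDH, the entry enzyme of serine synthesis (0.797). Their Spearman rho ran between 0.761 and 0.86. The median r of all genes was -0.086 and the 99th percentile 0.565. LIPG averaged 539 ± 422 CPM in pregnant and 79.2 ± 46.1 CPM in cyclic luminal epithelium, and GM2A averaged 3304 ± 3174 CPM in pregnant and 693 ± 424 CPM in cyclic luminal epithelium (SD, n = 4 and 5). In the glands both were low, with LIPG at 4.31 ± 3.86 CPM in pregnant and 3.37 ± 2.87 CPM in cyclic libraries (SD, n = 4 each).

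The genes whose levels followed PRSS23 most closely were LTBP1, which binds latent TGF-beta in the matrix (r = 0.869), RASSF8 (0.788), CD34, a surface sialomucin of vascular and stromal cells (0.771), PSMD11, a proteasome subunit (0.761) and IL6ST, the shared receptor chain of the interleukin 6 family (0.665). Their rho ran between 0.665 and 0.791, beside a median r of -0.107 and a 99th percentile of 0.49. CD34 averaged 148 ± 12.3 CPM in pregnant and 181 ± 213 CPM in cyclic stroma (SD, n = 2 each), and 107 ± 98.9 CPM in pregnant and 13.9 ± 20.3 CPM in cyclic luminal epithelium (SD, n = 4 and 5). LTBP1 averaged 80.7 ± 46.6 CPM in pregnant and 5.05 ± 7.58 CPM in cyclic luminal epithelium.

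With the 16 epithelial libraries of 4 mares alone, none of these 5 stayed among the 5 genes most like PRSS23, although r was 0.821 for LTBP1, 0.78 for CD34, 0.743 for RASSF8, 0.68 for PSMD11 and 0.474 for IL6ST. For SERPINA14 3 of the 5 stayed. The 2 sets of like genes had no member in common. SERPINA14 and PRSS23 themselves gave r = 0.414 and rho = 0.22 over the 21 libraries. These correlations are descriptions: the libraries share mares, and the compartments and states set most of the spread.

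**Figure D5:**
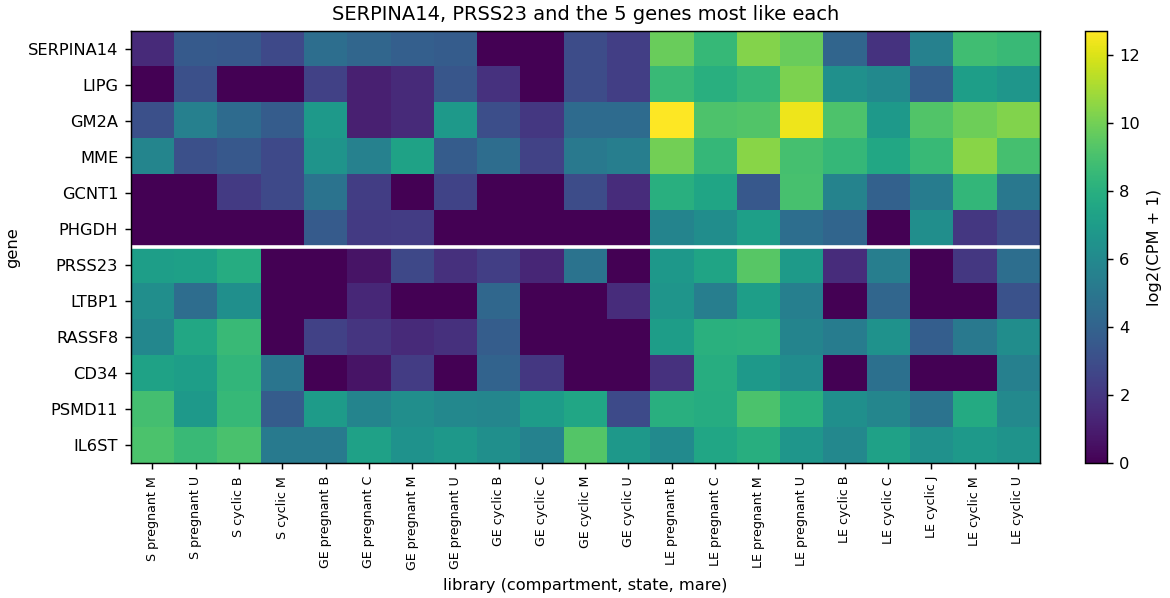
log2(CPM + 1) of SERPINA14 with its 5 most similar genes (above the white line) and of PRSS23 with its 5 (below it) in the 21 libraries, ordered as stroma (S), glandular (GE) and luminal epithelium (LE), pregnant before cyclic, with the mare's letter. SERPINA14 and GM2A have their highest values in luminal libraries. In the lower block PSMD11 and IL6ST are also present in every glandular library, with IL6ST at 9.30 in the cyclic glands of mare M.

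The named genes beside SERPINA14 in the genome had no counts in these libraries. In the RefSeq annotation of the TB-T2T horse assembly, used for order of genes alone, SERPINA14 stands between SERPINA11 and SERPINA9, with SERPINA12 (vaspin) and SERPINA5 (protein C inhibitor) next in the row. SERPINA9, SERPINA11, SERPINA12 and SERPINA5 had 0 counts in all 21 libraries, so no read was assigned to these relatives, and 14 of the 29 matched serpins had none. Of the unnamed neighbours LOC100065068 had 3 counts, all luminal. LOC138920541 and LOC138920645 were not among the counted genes.

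Around PRSS23 the named genes were expressed. FZD4, a Wnt receptor, had 408 counts in all, of which 61 were stromal, 243 glandular and 104 luminal. ME3, a mitochondrial malic enzyme, had 68, of which 0 were stromal, 3 glandular and 65 luminal. CCDC81, further along, had 436, of which 3 were stromal, 26 glandular and 407 luminal. None of these genes overlaps PRSS23 in that annotation.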

How the data were processed

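RNA was measured in 21 laser-captured libraries. The submitters' processing notes name Trimmomatic 0.32.2 and HISAT2 2.0.3. Not given in the sources used here are the tool for counting, the build, the annotation and the strand setting, and some libraries received an added amplification that the labels do not assign, per the labels' protocols. The authors deposited raw read counts per gene, and 2 tables of signal (counts divided by an effective library size, for 21 and 19 libraries), which served as alternatives. The 19-library table lacks the pregnant luminal and cyclic glandular libraries of mare M. The labels hold 5 mares, whereas the design text speaks of 6.

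The genes, lists and tests were chosen with earlier results of these data known. Symbols came from a RefSeq gene table by Entrez ID (21420 of 24942 IDs, 85.9%). Tests used edgeR 4.0.16 in R 4.3.3 on the counts: quasi-likelihood F-tests, two-sided, TMM scaling, filterByExpr (minimum count 10, minimum total 15), Benjamini-Hochberg adjustment over all genes tested and a threshold of 0.05. States were compared within a compartment. Compartments were compared on counts summed per mare with the mare as a block. Stroma and glands were compared in a fit that also held the luminal sums of the same biopsies. SE is the estimate divided by the square root of F. SERPINA14 and PRSS23 are given no test against luminal epithelium, although one was planned, since the luminal libraries chose them. Where a gene failed the filter, the mean of log2(CPM + 1) was compared by an exact permutation test in the glands (4 against 4, and sign flips within mares), or given with no test; this differs from the planned edgeR test. Ratios of few counts have exact (Clopper-Pearson) 95% counting intervals, and the floor of a count of 0 is 3 counts; both cover counting error only, since amplified reads are not independent molecules. Total counts were 136259 to 1467510 per library. The highest correlation between libraries was 0.716, so none was a duplicate. The mare's letter in the labels pairs states within an animal, and same-mare deviations correlated at 0.016 to 0.054 in luminal and -0.01 to 0.045 in glandular libraries.

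Besides SERPINA14 and PRSS23, the named genes are, of each list, the members called in a tested comparison and the 4 of highest mean CPM, and for each of the pair the 5 named genes (uncharacterised LOC symbols and ribosomal RNA left out) with the highest Pearson r. The scripts were tested on simulated data. Alternatives were RLE scaling, no scaling, no filter, a count in every library, DESeq2 1.42.0, limma-voom 3.58.1, limma on the deposited signal, the replicate block, unsummed libraries and leaving out each replicate.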

Additional observations from a re-analysis of the deposited data

Results flagged for a closer look

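In pregnant luminal epithelium PRSS23 was 685 CPM in mare M, with the nearest of the other 3 libraries at 167 CPM, and the gap was 0.896 of the group's range; Dixon's 95% critical value for 4 samples was passed. In cyclic glandular epithelium PRSS23 was 27.3 CPM in mare M, on 4 counts, with the nearest library at 4.11 CPM and a gap of 0.849 of the range. These are 2 of 8 groups looked at. Dixon's rate of 5% assumes normally distributed values, whereas the check was run on CPM without a log. That rate may not hold here, and no excess over chance is read from the 2 groups. Both libraries are the ones left out of the authors' 19-library table, the luminal one was the shallowest (136259 counts), and they had the lowest shares of 18S ribosomal RNA, 0.452% and 0.293%. The glandular one had 15100 CPM of epithelial markers, against 1548 to 1726 CPM in the rest of its group. EPCAM made up most of this sum (mean 4723 CPM in cyclic glands, with KRT18 next at 153 CPM).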

How the results depend on the processing

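Glandular minus luminal values, given with no test, were -6.08 to -5.03 for SERPINA14 and -7.02 to -3.82 for PRSS23 over 16 alternatives each, which reuse the libraries that chose the genes. Leaving out 1 mare gave -5.49 to -4.67 for PRSS23. For the unsummed libraries the count filter went by compartment and state, a choice made after seeing that neither gene passed it by compartment alone. In glands the SERPINA14 difference between states was 2.29 to 3.28 when 1 library was left out. The exact permutation p was 0.0571 without any 1 pregnant library and 0.0286 without any 1 cyclic one. The difference was 2.83 without a filter, 2.74 in the deposited signal of 21 libraries (limma, adjusted p = 0.917) and 3.28 in that of 19 (0.973), none of them called. PRSS23 in glands turned to 0.0721 in the 19 libraries. In stroma its difference between states was -0.106 without scaling and -0.762 to 8.52 with 1 library left out. Stroma minus glands was called for PRSS23 with a count required in every library (5.43) and by DESeq2 (5.81). Over all genes these 2 settings called 91 of 2066 and 494 of 5769. Stroma minus luminal epithelium ranged from -0.188 to 2.33 with 1 mare left out. The cause was not tested.

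With the mare as a replicate block the luminal state differences were 3.72 for SERPINA14 and 4.08 for PRSS23, and neither gene passed the filter in the glands. In the glands exact sign flips within mares, a replicate block added after seeing the data, kept 2.73 for SERPINA14 at p = 0.125. Counts of called genes were 120 to 1010 (498 in the main analysis) between glands and luminal epithelium, 0 to 494 (74) between stroma and glands, 0 to 573 (64) between stroma and luminal epithelium, 0 to 83 (19), 0 to 34 (3) and 0 to 4 (0) between states in luminal epithelium, glands and stroma. Depth limits PRSS23 in glands and SERPINA14 in stroma, where a library held at most 5 and 3 counts.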
